A study of Mus musculus with 21 samples.

Results

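Costimulatory and coinhibitory ligands are the surface proteins by which an antigen-presenting cell tells a T cell, alongside the peptide on its MHC molecule, whether to respond. The 10 genes described here are Cd80, Cd86, Cd274, Pdcd1lg2, Icosl, Cd40, Cd70, Tnfsf4, Tnfsf9 and Cd83. They were chosen as known members of this group, and every probe set of the array whose only gene symbol is one of them was taken, which gave 17 of the 45101 probe sets. A gene entered the tests if 1 of its probe sets had a signal above 156.3, the median of the whole table, on at least 3 of the 21 arrays. This kept 9 of the 10 genes (15 of the 17 probe sets) among 13284 genes tested. Cd70 did not pass.

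The study compared cells sorted from the spleen of C57BL/6 mice on Affymetrix arrays, with 3 arrays in each of 7 groups. Dendritic cells (DCs) were sorted with the antibody 33D1, which binds CD8-negative DCs with high CD11c, or with an antibody to DEC205, the marker of CD8-positive DCs. Each DC subset came from wild-type mice (pools of 40 to 80 mice) and from mice given a melanoma that makes Flt3L, killed 10 to 12 days later (pools of 20 mice). The lymphocytes (B cells, T cells with CD4 and T cells with CD8) came from wild-type mice in pools of 5 to 8 animals. Flt3L is the growth factor that expands DCs, and in these mice it came together with a tumour, so the effects of each cannot be told apart. The labels do not say how pools of one group were separated, so p-values reflect only how much the pooled samples varied, which may be partly technical. Values are signals on a linear scale, and every array had been scaled to a trimmed mean of 500. Tests were made with limma on log2(signal + 48.6), a scale that understates the change of low genes, and a gene was called at a Benjamini-Hochberg adjusted p under 0.05 over all 13284 genes. Signals of different genes come from different probes, so levels are compared between groups and not between genes.

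The sort genes shown here, Ly75 in wild-type DCs and Itgax, matched the labelled cell types. Ly75, which encodes DEC205, lay between 2682.5 and 3131.1 in wild-type DEC205 DCs and between 117.4 and 218.8 in 33D1 DCs, and Itgax, which encodes CD11c, was at least 8904 on all 12 DC arrays and at most 417.3 on the lymphocyte arrays. An earlier analysis of these data named 2 arrays as mixed with transcripts of the other subset, replicate 3 of wild-type DEC205 DCs and replicate 3 of 33D1 DCs from Flt3L mice. The 4 measured markers of CD8-negative DCs summed to 900.5 to 1837 on the wild-type DEC205 arrays against 15420 to 17770 on those of 33D1 DCs. The called differences of the ligands between the subsets are therefore also given without both mixed arrays. Most called differences of other genes between the subsets are given with all arrays only. The summed signal of the 6 B cell markers measured, of 7 listed, was 2792 to 3014 in wild-type 33D1 DCs, 2622 to 2881 in wild-type DEC205 DCs and 107500 to 119100 in B cells. That of the 6 measured T cell markers was 898.9 to 1025 in 33D1 DCs and 478.4 to 499.2 in DEC205 DCs, against 63890 to 65970 in CD4 T cells, with 5 of the 6 below the table median on every array of either subset. Macrophage markers summed to 10530 to 11540 in 33D1 DCs and 6385 to 8418 in DEC205 DCs, and plasmacytoid DC markers to 2206 to 2565 and 3687 to 3896. Of the 8 macrophage markers, 3 lay below the table median on every array of wild-type 33D1 DCs and 0 did in DEC205 DCs. The higher sum of 33D1 DCs is thus not shared by all these markers. The plasmacytoid DC markers summed to 24330 to 26220 in B cells, so that sum is not particular to plasmacytoid DCs. In Flt3L mice the B cell markers summed to 2529 to 2709 in 33D1 and 730.8 to 1264 in DEC205 DCs. The macrophage markers summed to 9432 to 10120 and 4752 to 5158 there, with 4 and 3 of the 8 below the table median on every array. The part of these cell types in the differences of the ligands was not tested. Because the RNA is from bulk samples, fewer cells that express a gene and less RNA per cell cannot be told apart.

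CD80 and CD86 are the ligands of the B7 family that bind CD28, which drives T cell activation, and CTLA-4, which restrains it. PD-L1 (the product of Cd274) and PD-L2 (Pdcd1lg2) bind the inhibitory receptor PD-1, and ICOS ligand (Icosl) binds ICOS on activated and follicular helper T cells. CD40 is a receptor on the antigen-presenting cell that receives CD40 ligand from the T cell and signals through TRAF adaptors to NF-kB. CD70, OX40L (Tnfsf4) and 4-1BBL (Tnfsf9) are ligands of the TNF family for CD27, OX40 and 4-1BB on T cells. CD83 is a marker of mature DCs and of activated B cells that keeps CD86 and MHC class II at the surface by opposing the ligase MARCH1.

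In wild-type mice the subsets differed in 4 of these transcripts. Cd274, Pdcd1lg2 and Icosl were higher in 33D1 DCs, Cd86 was higher in DEC205 DCs, and Cd80, Cd40, Tnfsf4, Tnfsf9 and Cd83 did not pass the test. Thus 4 of the 9 tested genes were called (3 higher and 1 lower in 33D1 DCs), where 23.1% of all genes tested were called (11.3% higher and 11.8% lower). The 3 arrays of one subset did not overlap the 3 of the other for the same 4 genes, against 38.3% of all genes. The median log2 difference of the 9 genes was 0.20, and that of all genes was 0.04.

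**Figure D1:**
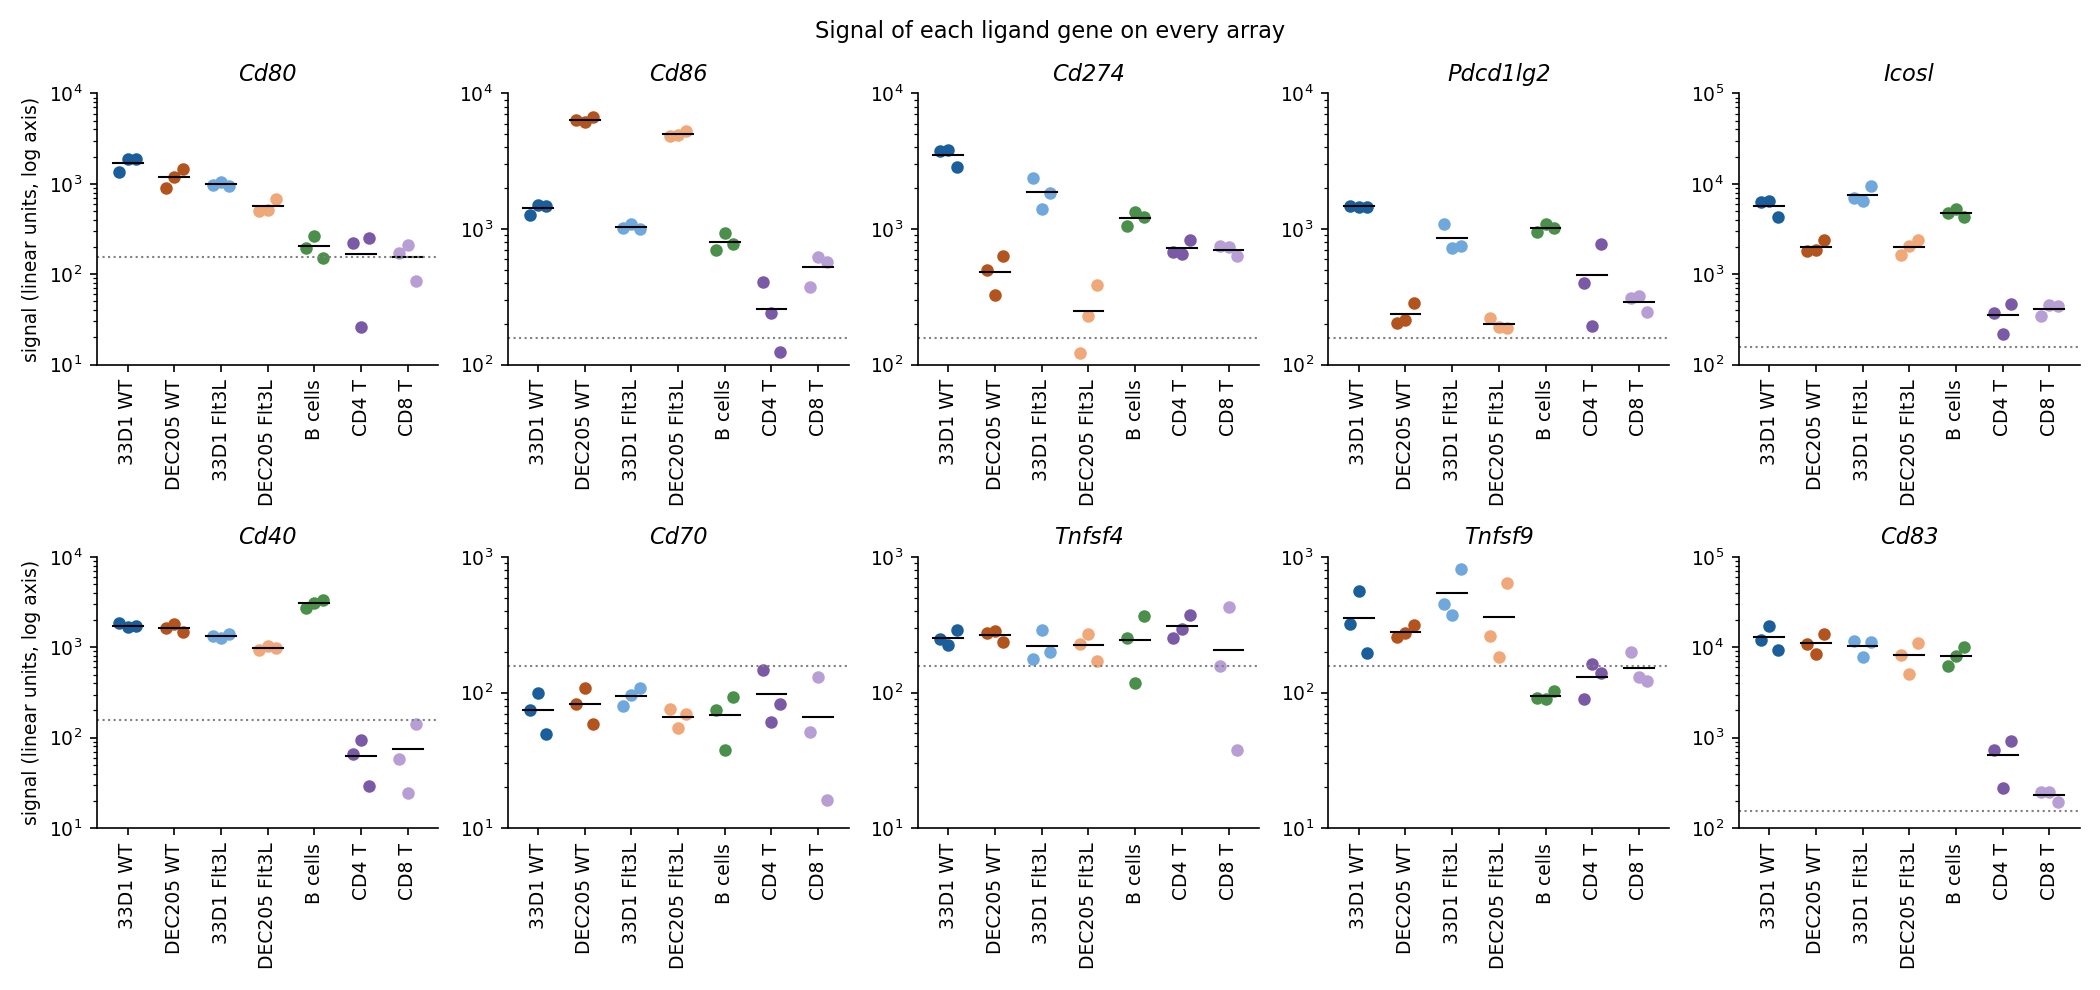
Signal of the 10 genes on each of the 21 arrays (one point per array, log axis, linear signal units; the black line is the mean of 3 arrays and the dotted line the table median of 156.3). Cd86 is high in both DEC205 groups, Cd274 and Pdcd1lg2 are low there, Cd40 is near or below the dotted line in T cells only, and Cd70 lies below the line on every array.

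The signal of Cd86 was 1276.1, 1504.3 and 1476.3 on the arrays of wild-type 33D1 DCs and 6367.0, 6152.4 and 6710.3 on those of DEC205 DCs. The groups lay far apart, with little spread within either. Means were 1419 ± 124 (SD, n = 3) and 6410 ± 281, a log2 difference of -2.14 ± 0.23 (SE, limma adjusted p = 1.9e-07), or 4.41-fold, and -2.11 without both mixed arrays. The other Cd86 probe set showed the same pattern (-2.26, adjusted p = 4.37e-08 over all kept probe sets). B cells had 702.9, 940.0 and 779.9, CD8 T cells 371.4, 626.8 and 575.6, and CD4 T cells 408.2, 238.9 and 123.6. In the order of levels both DEC205 groups stood first, with no separation between them (adjusted p = 0.62), followed at a clear step (1.92e-06) by both 33D1 groups, which were not separated from each other (0.537).

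Cd80, which binds the same receptors as Cd86, did not share its pattern. Its brightest probe set gave 1343.1, 1870.9 and 1868.2 in wild-type 33D1 DCs and 906.5, 1179.9 and 1460.2 in DEC205 DCs, so the groups overlapped. The log2 difference was 0.51 ± 0.36, with a 95% interval from -0.24 to 1.26 (adjusted p = 0.378). Of the 4 probe sets of Cd80, 3 passed the filter, and the other two gave 0.40 and 0.38, with no call.

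Cd274, the gene of PD-L1, had signals of 3753.4, 3858.7 and 2851.1 in wild-type 33D1 DCs and of 496.3, 328.0 and 628.2 in DEC205 DCs. Means were 3488 ± 554 and 484.2 ± 150, a log2 difference of 2.76 ± 0.26 (adjusted p = 2.87e-08), or 6.77-fold. The highest of the DEC205 arrays was replicate 3, which the earlier analysis named as mixed. Whether mixing raised its Cd274 signal was not tested. Without both arrays named as mixed the difference was 2.95 (adjusted p = 1.99e-07). CD4 T cells (674.5, 659.2 and 823.8) and CD8 T cells (743.1, 730.9 and 634.5) lay above all 3 wild-type DEC205 arrays. Neither T cell group was separated from wild-type DEC205 DCs by the test (limma adjusted p = 0.0836 and 0.0986). DEC205 DCs of Flt3L mice were lower than CD4 T cells (-1.48 ± 0.26, adjusted p = 5.66e-05) and CD8 T cells (-1.45 ± 0.26, adjusted p = 7.06e-05).

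Pdcd1lg2, the gene of PD-L2, followed Cd274. Its signals were 1489.6, 1454.8 and 1460.1 in wild-type 33D1 DCs and 204.1, 212.9 and 286.7 in DEC205 DCs. The log2 difference was 2.43 ± 0.27 (adjusted p = 4.47e-07), or 5.40-fold, and 2.56 without both mixed arrays. In the order of its levels, wild-type 33D1 DCs, B cells and 33D1 DCs of Flt3L mice stood above CD4 T cells, with the step after the third group (adjusted p = 0.00549). T cells and DEC205 DCs stood below, with no neighbours in the order separated. Beyond neighbours, DEC205 DCs of Flt3L mice were lower than CD4 T cells (-0.86 ± 0.27, limma adjusted p = 0.0134). Across the 21 arrays Pdcd1lg2 and Cd274 correlated with r = 0.89, and across the 12 DC arrays with r = 0.96. The points share arrays, scaling and the subset difference itself, so these values describe the pattern only. In the RefSeq gene table the genes are direct neighbours, with 0 annotated genes between them.

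Icosl was the third gene higher in 33D1 DCs. Signals were 6292.3, 6385.7 and 4251.8 in wild-type 33D1 DCs and 1826.4, 1850.5 and 2368.2 in DEC205 DCs, and the lowest 33D1 array still lay above the highest DEC205 array. The log2 difference was 1.45 ± 0.21 (adjusted p = 1.37e-05), or 2.73-fold, and 1.57 without both mixed arrays. B cells (4792.8, 5287.0 and 4345.2) were not separated from wild-type 33D1 DCs (adjusted p = 0.51), and T cells were far below, at 220.0 to 469.5. A second, dim probe set of Icosl, at 96.4 to 259.5 over the 21 arrays, gave 0.04 for the same difference (adjusted p = 0.955), and the mean of both probe sets gave 0.74, still called (adjusted p = 0.00167).

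The 250 bases before the annotated start are shown for the 3 genes higher in 33D1 DCs, so that the promoters of genes that differed in one direction can be compared. Sequences are from RefSeq on GRCm38.p6, plus strand, 5′ to 3′, and 4 of the 10 genes had an entry in the table used. Capitals mark matches, on either strand, to a loose form of the kappaB site bound by NF-kB: GGG and CC with any 5 bases between them.
Cd274, chr19:29367188-29367437: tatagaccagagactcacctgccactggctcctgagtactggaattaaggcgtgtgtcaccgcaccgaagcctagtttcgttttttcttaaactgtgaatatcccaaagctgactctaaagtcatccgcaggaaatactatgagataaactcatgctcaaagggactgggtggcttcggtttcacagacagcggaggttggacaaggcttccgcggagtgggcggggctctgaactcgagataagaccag
Pdcd1lg2, chr19:29410669-29410918: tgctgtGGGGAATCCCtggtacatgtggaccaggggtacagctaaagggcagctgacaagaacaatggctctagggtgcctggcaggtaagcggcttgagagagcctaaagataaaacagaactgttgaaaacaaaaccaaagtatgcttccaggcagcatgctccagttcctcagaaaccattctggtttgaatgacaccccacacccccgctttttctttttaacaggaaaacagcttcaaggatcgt
Icosl, chr10:78069118-78069367: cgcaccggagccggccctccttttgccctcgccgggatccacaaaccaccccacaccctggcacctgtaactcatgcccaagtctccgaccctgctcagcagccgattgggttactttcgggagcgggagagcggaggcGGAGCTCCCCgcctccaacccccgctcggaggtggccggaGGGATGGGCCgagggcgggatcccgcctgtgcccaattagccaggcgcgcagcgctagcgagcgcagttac
Pdcd1lg2 held 1 match and Icosl 2, while these letters were not in the Cd274 window. Cd80, the other gene with an entry, was not called between the subsets and also held 2 matches. Of all 32851 promoter windows of this length, 45.8% held such a match, so a match is common. A core bound by interferon regulatory factors, GAAA repeated with any 2 bases between, was in 0 of the 3 windows and in 2.98% of all windows.

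The members of the TNF and TNF receptor families were not separated between the subsets of wild-type mice. Cd40 had 1840.9, 1676.3 and 1709.8 in 33D1 DCs and 1648.4, 1800.5 and 1474.4 in DEC205 DCs, a log2 difference of 0.09 ± 0.24 (95% interval -0.41 to 0.58). Tnfsf9 had 319.2, 557.8 and 195.4 against 254.8, 272.6 and 316.1 (0.20 ± 0.35, -0.52 to 0.93). Tnfsf4 stayed between 37.7 and 427.2 on all arrays, and 0 of its 21 pairs of groups were separated by limma. Cd70 lay between 16.2 and 147.6 on all 21 arrays, each below the table median, so no difference could be read from it. The intervals of the brightest Cd40 probe set and of Tnfsf9 leave room for differences of up to 0.58 and 0.93 on the log2 scale. The other Cd40 probe sets, not called either, gave 0.42 (0.02 to 0.82) and 0.21 (-0.25 to 0.66), which leaves more room.

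Cd83 was high in every DC and B cell group and scattered between arrays of a group. It had 12072.2, 17296.8 and 9419.9 in wild-type 33D1 DCs and 10925.3, 8340.7 and 14181.7 in DEC205 DCs, a log2 difference of 0.20 ± 0.33 (95% interval -0.49 to 0.89). Marchf1, the gene of the ligase that removes CD86 and MHC class II from the surface, was by contrast lower in 33D1 DCs, at 2703 ± 62.3 against 4935 ± 77.5 (-0.86 ± 0.16, adjusted p = 0.00026). Marchf1 was thus higher in the subset that also had more Cd86 transcript.

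In mice with the Flt3L melanoma the same 4 genes were called in the same directions, 4 of 9 against 23.5% of all genes (3 higher against 11.7%, 1 lower against 11.8%). This comparison shares no arrays with that of wild-type mice, though limma pooled each gene's spread over both. Cd86 had 1020.3, 1082.8 and 997.8 in 33D1 DCs and 4886.4, 4940.5 and 5314.9 in DEC205 DCs (-2.24 ± 0.23, adjusted p = 1.02e-07). Cd274 had 2369.5, 1398.0 and 1839.9 against 122.7, 228.3 and 389.5 (2.77 ± 0.26, adjusted p = 2.53e-08). The subsets again lay well apart for both genes.

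Pdcd1lg2 had 1086.5, 722.5 and 754.4 in 33D1 DCs of Flt3L mice and 221.8, 187.8 and 186.3 in DEC205 DCs (1.85 ± 0.27, adjusted p = 1.88e-05). Icosl had 6917.1, 6437.8 and 9395.5 against 1633.4, 2049.4 and 2372.1 (1.88 ± 0.21, adjusted p = 4.08e-07). Without both mixed arrays the 4 differences were -2.21 for Cd86, 2.77 for Cd274, 1.92 for Pdcd1lg2 and 1.72 for Icosl, all called. The mean of both Icosl probe sets gave 1.17 (adjusted p = 1.13e-05). The arrays of the subsets did not overlap for 6 of the 9 genes, against 40.8% of all genes, the additional ones being Cd80 and Cd40.

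**Figure D2:**
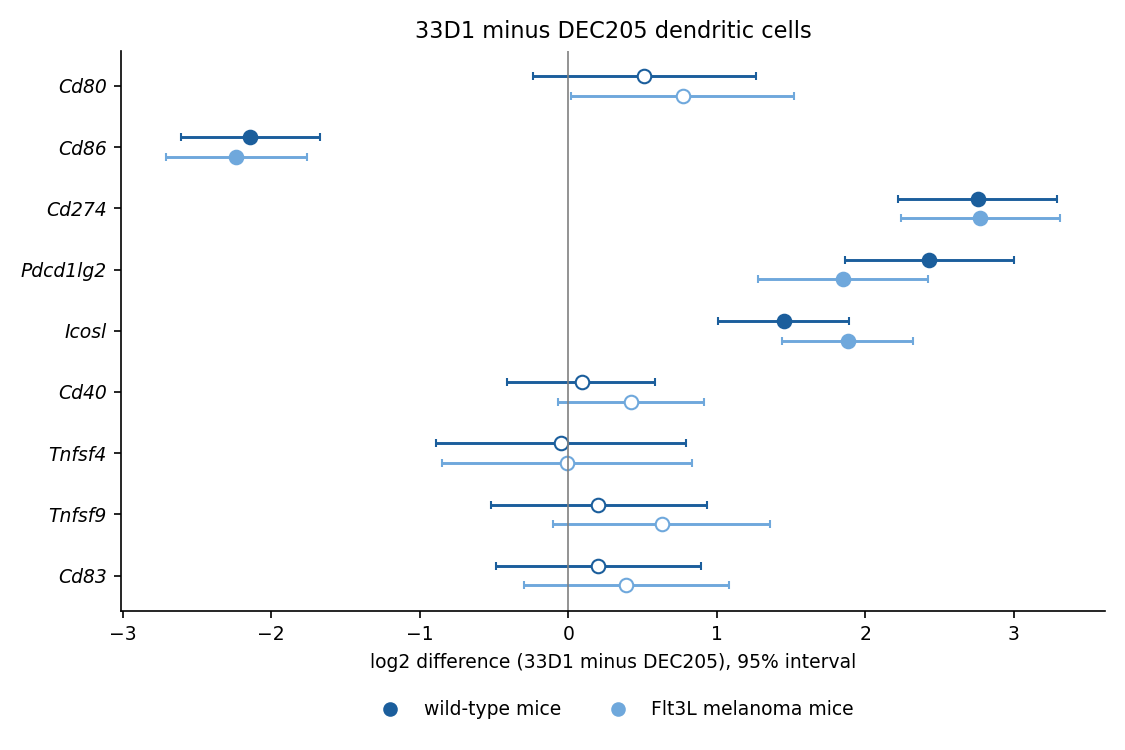
Log2 difference between 33D1 and DEC205 DCs for the 9 tested genes in wild-type mice (dark) and Flt3L melanoma mice (light), with 95% intervals from limma; filled points have an adjusted p under 0.05. Cd274, Pdcd1lg2 and Icosl lie to the right, Cd86 lies to the left, and the intervals of both kinds of mice overlap for every gene.

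For Cd40 in Flt3L mice the answer depended on the probe set. The brightest gave 1339.4, 1274.0 and 1388.5 in 33D1 DCs and 927.4, 1039.1 and 990.8 in DEC205 DCs, which did not pass (0.42 ± 0.24, adjusted p = 0.235), while the other two Cd40 probe sets gave 0.84 (adjusted p = 0.00239) and 0.98 (0.00194). With the mean of all Cd40 probe sets the difference was 0.75 and was called (adjusted p = 4.71e-05, in a range of 4.71e-05 to 0.573 over 19 alternatives, of which 3 called it). Cd80 did not pass either (0.77 ± 0.36, adjusted p = 0.142), with all 33D1 arrays above all DEC205 arrays, at 968.4, 1045.7 and 949.5 against 496.1, 519.7 and 679.6. With an offset of 200 it was called (0.64, adjusted p = 0.0283), as it was when only these groups were fitted (0.77, adjusted p = 0.00259), and both settings called Cd40 too (adjusted p = 0.0423 and 0.0176).

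The comparison of Flt3L melanoma mice with wild-type mice gave 0 called genes of 9 in either subset by limma, where 1.01% of all genes were called in 33D1 DCs and 2.11% in DEC205 DCs. At an unadjusted p under 0.05 there were 2 of 9 in 33D1 DCs (10.4% of all genes) and 3 of 9 in DEC205 DCs (12.4%). The values leaned one way. In each subset 7 of the 9 differences were below 0, with a median of -0.37 in 33D1 DCs and -0.34 in DEC205 DCs, beside 0.00 and -0.01 for all genes. These comparisons share the wild-type and Flt3L arrays with the comparisons of the subsets. All 3 Flt3L arrays lay below all 3 wild-type arrays for Cd80, Cd86, Cd274, Pdcd1lg2 and Cd40 in 33D1 DCs, and above them for Icosl. That is 6 of 9 genes without overlap, against 18.4% of all genes, and in DEC205 DCs it was 3 of 9 (Cd80, Cd86 and Cd40) against 20.0%. These counts use the brightest probe set of each gene. In 33D1 DCs the other Cd40 probe sets (-0.18 and -0.09) and that of Icosl (0.23) overlapped. In DEC205 DCs the other Cd86 probe set (-0.13) and 1 of Cd80 (-0.72) did.

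For Cd274 and Cd80 the difference was of like size in both subsets. Cd274 differed by -0.90 ± 0.26 in 33D1 DCs (95% interval -1.44 to -0.37, adjusted p = 0.115) and by -0.91 ± 0.26 in DEC205 DCs (-1.45 to -0.38, adjusted p = 0.0711). The markers of CD8-negative DCs moved with it. Their 4 measured genes summed to 900.5 to 1837 in wild-type and 349.3 to 495.7 in Flt3L DEC205 DCs, with 3 called lower (Cd4, Sirpa and Esam). In 33D1 DCs the sums were 15420 to 17770 and 10850 to 13360, with 1 called lower (Esam). The part of these cells in the difference of Cd274 was not tested. Cd80 differed by -0.73 ± 0.36 in 33D1 DCs and by -0.99 ± 0.36 in DEC205 DCs (adjusted p = 0.498 and 0.208). Fitted on the compared groups alone, with their own estimate of the spread, Cd80, Cd274 and Pdcd1lg2 were called in 33D1 DCs and Cd80 and Cd40 in DEC205 DCs, each lower in Flt3L mice. Leaving out 1 DEC205 array, replicate 3 of Flt3L mice or replicate 2 of wild-type mice, brought Cd274 to a call, at -1.25 (adjusted p = 0.00913) and -1.14 (0.0383). Without both mixed arrays Cd274 was not called, at -0.72 in DEC205 DCs (limma adjusted p = 0.327) and -0.91 in 33D1 DCs (0.239).

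Icosl stood apart in 33D1 DCs, with 6917.1, 6437.8 and 9395.5 in Flt3L mice above 6292.3, 6385.7 and 4251.8 in wild-type mice (0.43 ± 0.21, adjusted p = 0.495), and differed by 0.00 ± 0.21 in DEC205 DCs. Whether the Flt3L difference was unequal between the subsets was tested directly, and 0 of 9 genes were called by limma or had an unadjusted p under 0.05, where 0.105% and 4.78% of all genes did. By the brightest probe set of each gene, the widest gap was that of Pdcd1lg2 (-0.58, 95% interval -1.39 to 0.22). A dimmer Cd40 probe set gave a wider one, 0.78 (0.13 to 1.42), not called over all kept probe sets (limma adjusted p = 0.811). It was called lower in DEC205 DCs of Flt3L than of wild-type mice (-0.87, adjusted p = 0.0467). The remaining Cd40 probe set gave a gap of 0.42 and was not called in either test. Melanoma markers summed to 572.1 to 777.1 in 33D1 DCs of Flt3L mice and 678.8 to 877.8 in those of wild-type mice, and to 606.8 to 826.3 and 644.3 to 892.6 in DEC205 DCs.

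**Figure D3:**
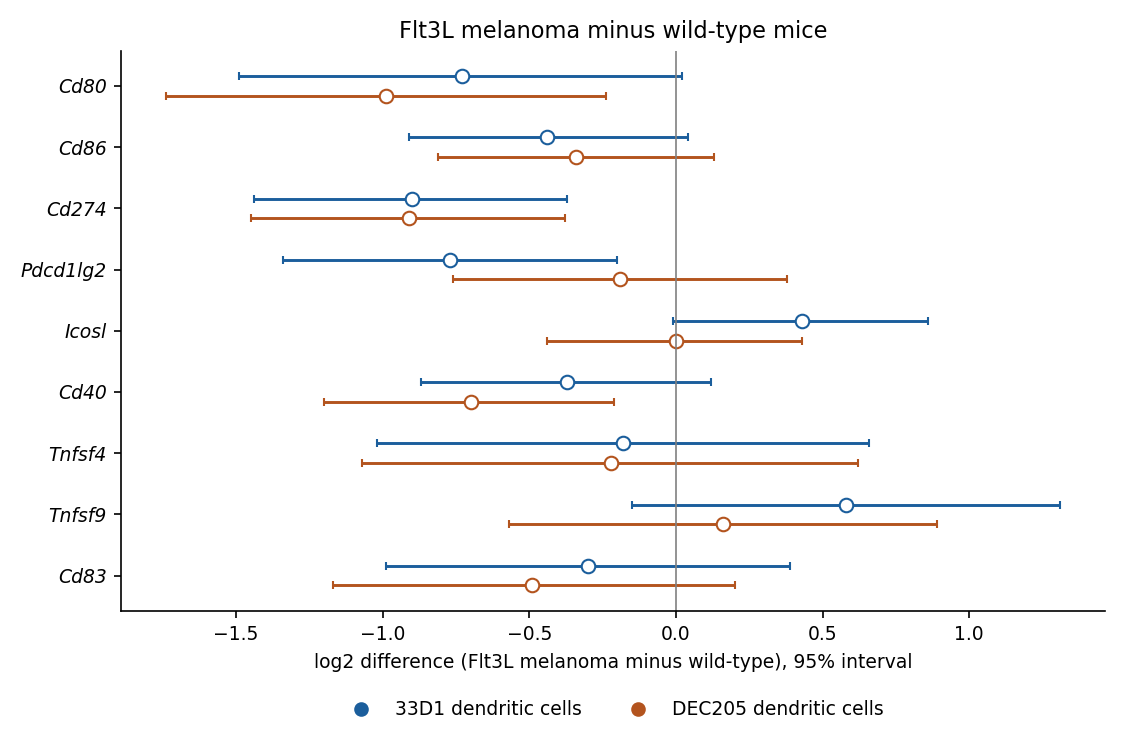
Log2 difference between Flt3L melanoma and wild-type mice in 33D1 DCs (blue) and DEC205 DCs (brown), with 95% intervals from limma; open points have an adjusted p of 0.05 or more, which holds for all 18. The points of Cd80, Cd86, Cd274, Pdcd1lg2, Cd40, Tnfsf4 and Cd83 lie below 0 in both subsets, and the intervals of both subsets overlap for every gene.

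B cells also present antigen to T cells, so each wild-type DC subset was set against them. Against B cells, 5 of 9 genes were called in 33D1 DCs (4 higher, 1 lower) where 34.0% of all genes were called (15.8% higher, 18.3% lower). In DEC205 DCs 7 of 9 were called (3 higher, 4 lower) where 39.0% were (18.3% and 20.7%). Cd80 was higher in both subsets, with 196.3, 265.3 and 151.1 in B cells (2.79 ± 0.36 in 33D1 and 2.28 ± 0.36 in DEC205 DCs). So was Tnfsf9, which had 90.5, 89.9 and 102.9 in B cells, all below the table median (1.41 ± 0.35, adjusted p = 0.00304, and 1.2 ± 0.35, adjusted p = 0.00873).

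Cd40 was the one gene lower in both DC subsets than in B cells, which had 2757.3, 3077.1 and 3368.7 (-0.80 ± 0.24, adjusted p = 0.0116 for 33D1 DCs, and -0.88 ± 0.24, adjusted p = 0.00476 for DEC205 DCs). The call for 33D1 DCs was lost with an offset of 16 (adjusted p = 0.0614) and with median centring (0.0525). Cd274 lay between the subsets in B cells, at 1049.7, 1341.7 and 1227.8, below 33D1 DCs (1.49 ± 0.26, adjusted p = 7.59e-05) and above DEC205 DCs (-1.27 ± 0.26, adjusted p = 0.000371). Pdcd1lg2, at 945.3, 1096.2 and 1012.4 in B cells, was lower in DEC205 DCs (-1.92 ± 0.27, adjusted p = 5.39e-06) and did not pass against 33D1 DCs (0.51 ± 0.27, adjusted p = 0.169). Icosl was likewise lower in DEC205 DCs (-1.24 ± 0.21, adjusted p = 4.81e-05). Its dim probe set gave -0.48, not called (limma adjusted p = 0.174 over all kept probe sets), and the mean of both gave -0.86, still called (adjusted p = 0.000218). Cd86 was higher in DEC205 DCs by 2.92 ± 0.23 and in 33D1 DCs by 0.78 ± 0.23 (adjusted p = 5.09e-10 and 0.00964).

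**Figure D4:**
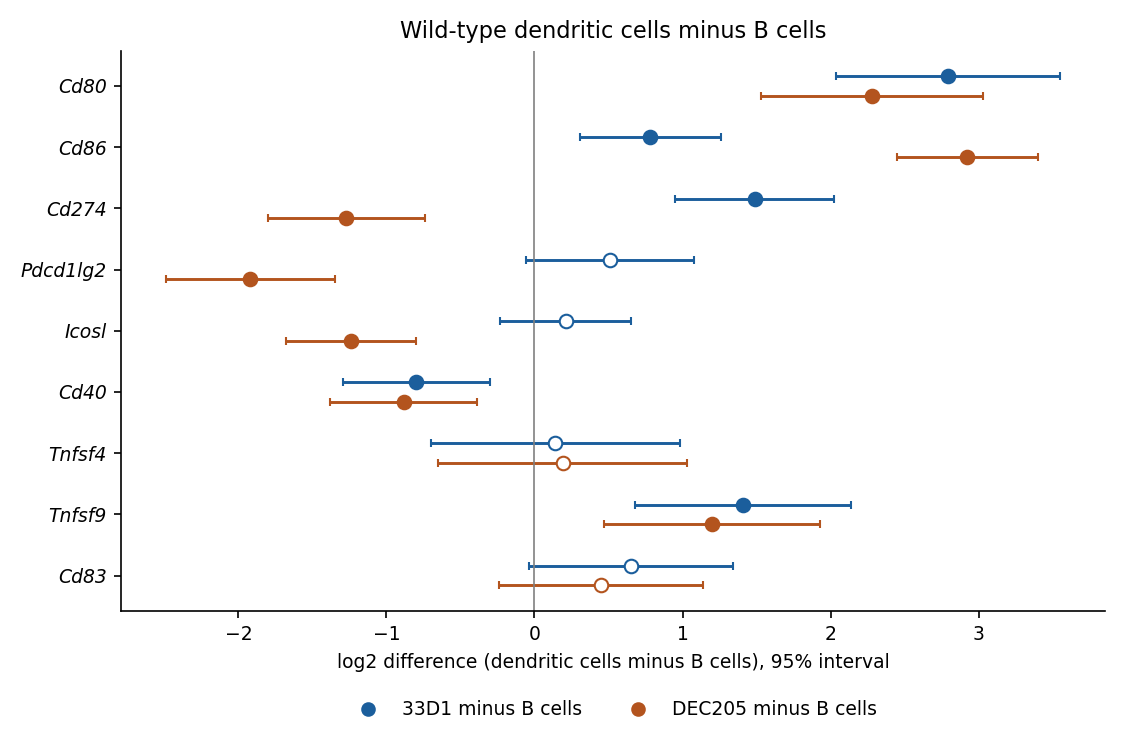
Log2 difference between wild-type 33D1 DCs (blue) or DEC205 DCs (brown) and B cells, with 95% intervals from limma; filled points have an adjusted p under 0.05. Cd274, Pdcd1lg2 and Icosl lie at or above 0 for 33D1 DCs and below 0 for DEC205 DCs, and Cd40 lies below 0 for both.

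Against T cells, 8 of the 9 genes were higher in the mean of both wild-type DC subsets, where 52.7% of all genes were called (22.7% higher and 30.0% lower). The median difference was 2.93, and that of all genes was -0.14. With median centring the median of all genes was 0.02, and 3350 genes were higher and 2427 lower in place of 3009 and 3988. Cd83 differed most, with 735.0, 276.4 and 920.5 in CD4 and 248.1, 252.2 and 195.5 in CD8 T cells (4.81 ± 0.23), followed by Cd40 (3.96 ± 0.17), which had 24.5 to 142.1 on the T cell arrays, all below the table median. The mean of the subsets hides their contrast for the PD-1 ligands. Cd274 was 2.20 ± 0.26 above CD4 T cells in 33D1 DCs and -0.56 ± 0.26 from them in DEC205 DCs. Pdcd1lg2 was 1.76 ± 0.27 above them and -0.67 ± 0.27 from them. Arrays of DCs and T cells overlapped for both genes and for Tnfsf9. Tnfsf9 was not separated between wild-type DEC205 DCs and CD8 T cells (0.74 ± 0.35, limma adjusted p = 0.0928). The dim Icosl probe set gave -0.17 for DCs against T cells, not called, and the mean of both gave 1.42, still called. In B cells 6 of the 9 genes were higher than in T cells (26.9% of all genes were called, 13.1% or 1734 higher and 13.9% or 1844 lower, and with median centring 1740 and 1136), led by Cd40 (4.80 ± 0.21), Cd83 (4.26 ± 0.29) and Icosl (3.52 ± 0.18). For Icosl between B and T cells the dim probe set gave 0.30, not called (limma adjusted p = 0.407 over all kept probe sets), and the mean of both gave 1.91, still called. The call of Cd274 between B and T cells (0.72 ± 0.22, adjusted p = 0.0175) was lost without B cell replicate 2 (0.0864) or replicate 3 (0.0572).

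Between the T cell subsets 1 of 9 genes was called, where 3.26% of all genes were (1.63% higher). Cd86 was higher in CD8 than in CD4 T cells (0.99 ± 0.23, adjusted p = 0.0136), with arrays that overlapped. That call was lost when only these groups were fitted (adjusted p = 0.352) and without CD4 replicate 3 (0.101), CD8 replicate 2 (0.081) or CD8 replicate 3 (0.0586). Cd83 lay the other way, at -1.17 ± 0.33 (adjusted p = 0.0571), and passed with quantile normalization (-1.30, adjusted p = 0.0186), with the replicate block (-1.17, adjusted p = 0.0441) and without CD4 replicate 2 (-1.64, adjusted p = 0.00187).

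The receptors of these ligands were measured on the same arrays. All 8 of the listed receptors (Cd28, Ctla4, Pdcd1, Icos, Cd40lg, Cd27, Tnfrsf4 and Tnfrsf9) were lower in DCs than in T cells, with a median of -2.03, where 30.0% of all genes were lower and their median was -0.14. Cd28 had a mean of 6369 ± 625 in CD4 T cells and of 59.33 ± 20.1 in 33D1 DCs, and Cd27, the receptor of CD70, had 2841 ± 417 and 48.87 ± 31.6. CD8 T cells had less than CD4 T cells of Tnfrsf4, the OX40 gene (-1.40 ± 0.20), Ctla4 (-2.65 ± 0.47), Cd40lg (-1.90 ± 0.38) and Cd28 (-1.21 ± 0.26), 4 of 8, where 3.26% of all genes were called in either direction.

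Icos, the receptor of ICOS ligand, was also measured in DCs, between 941.0 and 1025.5 in wild-type 33D1 DCs and between 71.0 and 117.1 in B cells (2.91 ± 0.25, adjusted p = 2.92e-09). It was higher in 33D1 than in DEC205 DCs in wild-type mice (0.85 ± 0.25, adjusted p = 0.0141) and in Flt3L mice (1.69 ± 0.25, adjusted p = 1.66e-05), the subset that was also higher in Icosl. Of the other receptors, Tnfrsf9 was called higher (1.12 ± 0.31, adjusted p = 0.00964) and Ctla4 lower (-1.47 ± 0.47, adjusted p = 0.0268) in wild-type 33D1 DCs, with a median of 0.31 over the 8. Without both mixed arrays 1 receptor was higher and 0 lower, and the counts were also 1 or 0 without single arrays (replicates 1, 2 or 3 of 33D1 DCs, replicate 3 of DEC205 DCs), with an offset of 200, with median centring and with the mean of all probe sets. In DEC205 DCs Icos was lower in Flt3L than in wild-type mice (-1.15 ± 0.25, adjusted p = 0.0147).

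Genes of the signalling path below CD40 were mostly higher in 33D1 DCs. Cd40 itself was not called between the subsets of wild-type mice by any of its probe sets, and in Flt3L mice the call differed between them, as given above. Of 15 measured TRAF adaptors, kinases, NF-kB subunits and inhibitors, 9 were higher and 0 lower in wild-type mice (median 0.70, beside 0.04 for all genes, of which 11.3% were higher and 11.8% lower). In Flt3L mice 10 were higher and 0 lower (median 0.95, beside 0.04, with 11.7% and 11.8% of all genes). Relb, the NF-kB subunit of the noncanonical path on which CD8-negative DCs depend, had 6776 ± 1430 in 33D1 and 1247 ± 385 in DEC205 DCs (2.42 ± 0.18, adjusted p = 5.67e-10). Bcl3, a nuclear partner of NF-kB (1.88 ± 0.17), and the adaptor Traf2 (0.97 ± 0.14) were next, and in Flt3L mice Relb (2.78 ± 0.18), Bcl3 (2.07 ± 0.17) and the inhibitor Nfkbie (1.13 ± 0.13). In DEC205 DCs of Flt3L mice Nfkbie (-0.88 ± 0.13), Traf1 (-1.01 ± 0.24) and Relb (-0.73 ± 0.18) were lower than in wild-type mice, 3 of 15, where 2.11% of all genes were called. The markers of CD8-negative DCs were lower on these arrays too, as given beside Cd274, and their part in this difference was not tested.

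**Figure D5:**
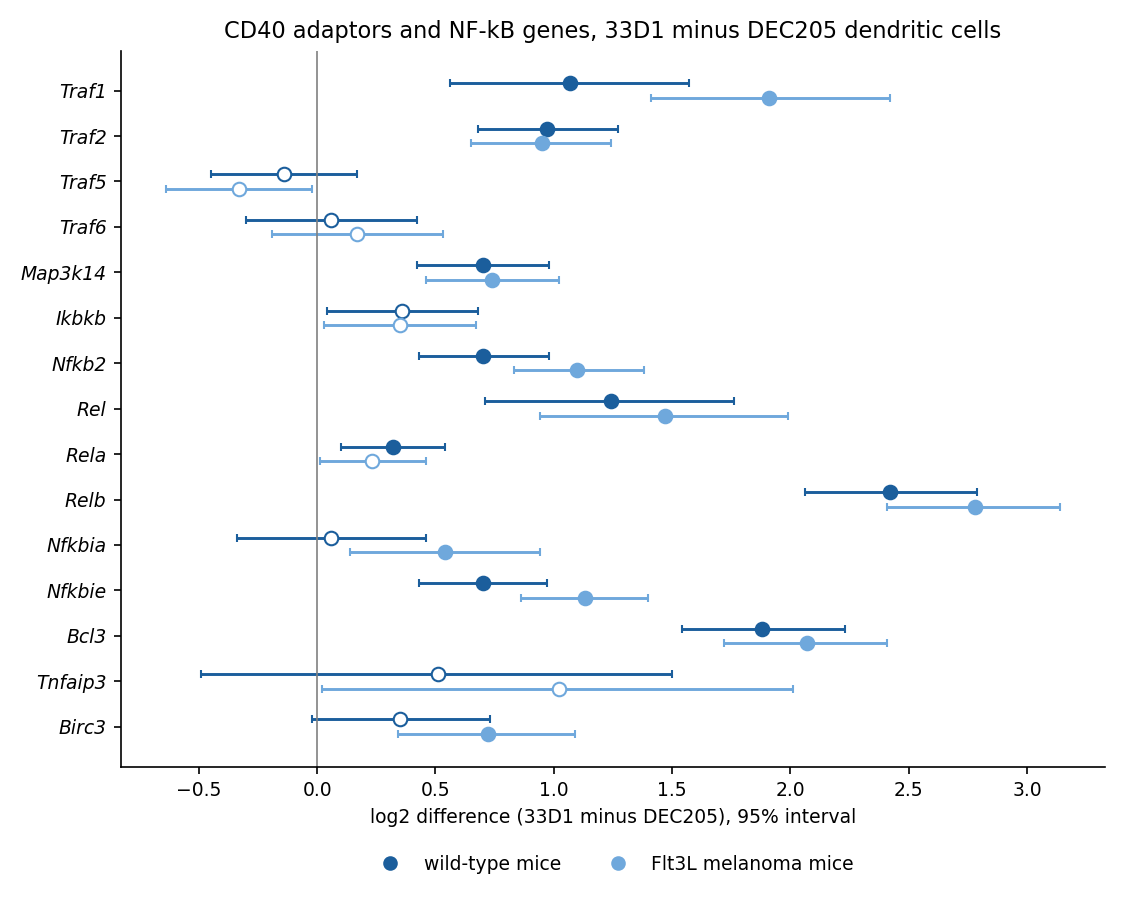
Log2 difference between 33D1 and DEC205 DCs for 15 genes of the CD40 and NF-kB path in wild-type (dark) and Flt3L melanoma mice (light), with 95% intervals from limma; filled points have an adjusted p under 0.05. Relb and Bcl3 lie farthest to the right, and no called point lies below 0.

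Other ligands and adhesion molecules of antigen-presenting cells divided between the subsets. Of 16 measured, the test called 4 higher and 6 lower in 33D1 than in DEC205 DCs of wild-type mice (median -0.13), where 23.1% of all genes were called, and 4 and 4 in Flt3L mice (median 0.05), where 23.5% were. The median of all genes was 0.04 in both. Those with the smallest p-values were Btla, an inhibitory receptor that binds HVEM (-2.53 ± 0.12), the semaphorin Sema4a, which costimulates T cells (-3.39 ± 0.20), the adhesion protein gene Cd24a (-3.74 ± 0.22) and Lgals9, a galectin that binds TIM-3 (1.27 ± 0.16). Leaving out replicate 3 of wild-type 33D1 DCs brought the higher count from 4 to 2.

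Genes raised when DCs mature were called in both directions. Of 17 measured, 7 were called higher in wild-type 33D1 DCs and 6 lower (median 0.36), beside 11.3% and 11.8% of all genes. In Flt3L mice 8 were higher and 5 lower (median 0.74), beside 11.7% and 11.8%, and the median of all genes was 0.04 in both. Stat4, a transcription factor of interleukin-12 signalling, was higher (4.11 ± 0.15) and the serpin gene Serpinb6b lower (-3.13 ± 0.20). Relb, which this list also holds, was among the higher genes. Among the lower genes were Il12b, the shared chain of interleukins 12 and 23 (-2.70 ± 0.32), and the chemokine gene Ccl22 (-2.20 ± 0.36), which are named after their values were seen.

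The genes whose log2 signals followed each ligand most closely over the 21 arrays are given as a description, since the arrays share groups and scaling. Pdcd1lg2 ran with Irf4, a transcription factor of CD8-negative DCs and B cells (Pearson r = 0.945), Ccr6 (0.923) and Serpinb7 (0.914), and Icosl with Nfkb2, the noncanonical NF-kB subunit (0.976), Evi5 (0.971) and H2-DMb2 (0.970). Cd274 ran with Ctsa (0.937), Abi3 (0.932) and Malt1 (0.930). Nearest to Cd86 were Atpif1 (0.959), Zfp367 (0.959) and Rab31 (0.954), and nearest to Cd80 were Kif9 (0.946), Mthfs (0.945) and Tmem131 (0.945). Cd40 ran with Cyb561a3 (0.984), H2-Ob, a chain of the class II editor H2-O (0.978), and Lmo2 (0.976), and Cd83 with Kmo (0.976), Napsa (0.974) and Dcxr (0.973). The flat Tnfsf4 reached at most 0.775 (Fn3krp), and Tnfsf9 at most 0.866 (Gcnt2). Among the ligands themselves, Cd86 ran against Icosl (r = -0.96), Pdcd1lg2 (-0.90) and Cd274 (-0.85) over the 12 DC arrays, where the subset difference sets the sign.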

How the data were processed

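The deposited values are linear intensities of probe sets. The submitters' processing notes name GCOS and MAS5, whose versions the sources used here do not give. Array medians lay between 121.9 and 204.4, and the number of arrays limits the precision. Groups and replicate numbers came from the sample titles (the description of the lymphocyte samples calls them dendritic cells). Genes were named from the 34945 probe sets with a single symbol in the platform annotation; another 932 had more than 1 symbol and 9160 lacked any. For each gene the kept probe set with the highest mean signal was used, and limma 3.58.1 in R 4.3.3 fitted a mean per group over all 21 arrays (eBayes with an intensity trend, two-sided, 14 residual degrees of freedom), with 10 contrasts and all 21 pairs of groups. The offset of 48.6 is the 25th percentile of the table. The fit was tested on simulated data.

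Named were all members, Marchf1, the sort markers, up to 4 called genes of smallest adjusted p per list of receptors and other ligands, up to 3 of the other lists, and the 3 best-correlated named genes of each member. The members and lists were chosen with earlier results of these data known. Same-numbered arrays deviated together, with every r over 0.1, in 1 of 21 pairs of groups. These were 33D1 and DEC205 DCs of Flt3L mice (r from 0.145 to 0.234, against -0.139 to -0.0042 between different numbers), a pairing taken from the data alone. B cells and CD4 T cells fell just short of that cutoff (0.0894 to 0.294, against -0.211 to 0.0325). Some arrays of different numbers also deviated together, with r up to 0.464 between CD4 and CD8 T cells. Links of that kind were not fitted. A fit with the number as a block on the Flt3L DC arrays was added after seeing the data. Alternatives covered the offset, scaling, filter, probe set, samples fitted, trend, block and arrays left out.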

Additional observations from a re-analysis of the deposited data

Results flagged for a closer look

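Among the lists of receptors, other ligands, CD40 signalling, maturation and surface turnover, 2 genes differed in their Flt3L difference between the DC subsets. The direct test of that difference called 0.105% of all genes. The marker lists of cell types were not part of this count. For Lgals9 the Flt3L difference in 33D1 DCs minus that in DEC205 DCs was -1.23 ± 0.23 (SE) on the log2 scale (limma adjusted p = 0.0319). Its signal was 639.2 ± 63.7 (SD, n = 3) in wild-type and 2294 ± 605 in Flt3L DEC205 DCs, and 1609 ± 116 and 2327 ± 411 in 33D1 DCs. For Sema4a it was 1.43 ± 0.28 (limma adjusted p = 0.0397), with signals of 267.7 to 488.3 in wild-type and 750.7 to 1375.7 in Flt3L 33D1 DCs, and of 3827.6 to 4211.1 and 3842.3 to 4498.9 in DEC205 DCs. Over 25 alternatives the difference of Lgals9 kept its sign (-1.47 to -1.07) and was called in 9, with adjusted p from 0.00175 to 0.441. That of Sema4a kept its sign too (1.14 to 1.67) and was called in 5, with adjusted p from 0.00994 to 0.303, and without both mixed arrays neither was called.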

How the results depend on the processing

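Of 1746 values of the 9 ligands under alternative settings, 1714 stayed on the same side of the threshold, 8 lost a call, 24 gained one and 0 reversed a called direction, while 50 uncalled values changed sign. Called ligands between Flt3L melanoma and wild-type mice, 0 in either subset, were 1 (33D1 DCs, Cd274) and 2 (DEC205 DCs, Cd80 and Cd40) with an offset of 200, 3 and 2 when only the compared groups were fitted, and 1 in DEC205 DCs (Cd40) with the mean of all probe sets. Leaving out single arrays gave 0 to 1 there in DEC205 DCs. Between CD8 and CD4 T cells the count of 1 became 2 with quantile normalization, 0 when only these groups were fitted and 0 to 3 without single arrays. With the replicate block on all arrays it was 2, since Cd83 joined Cd86, though the numbers do not pair these groups, and no other count of ligands moved by over 1.5 times. With the block within the Flt3L DC arrays, which the numbers do pair, the same 4 ligands were called between the subsets and no call of a ligand changed. The count between subsets stayed at 4 in wild-type mice and was 4 to 5 in Flt3L mice without single arrays. In Flt3L mice it was 6 with an offset of 200 and when only the compared groups were fitted (Cd80 and Cd40 joined), and 5 with the mean of all probe sets (Cd40). The cause of these shifts was not tested. Signals near the table median, as for Tnfsf4, Tnfsf9 and Cd70, limit what a difference can show, and 3 pools per group leave intervals wide.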
